A study of Rattus norvegicus with 32 samples.

Results

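Prostanoids are short-lived lipid signals made from arachidonic acid, and the 9 genes described here carry their synthesis and reception in liver sinusoidal endothelial cells (LSECs), the fenestrated cells that line the hepatic capillaries. The members were chosen by symbol: the cyclooxygenases Ptgs1 and Ptgs2, the terminal synthases Ptges, Ptgis, Tbxas1 and Ptgds, and the receptors Tbxa2r, Ptgir and Ptger4. Each was found once among the 32623 genes of the files, so that they are 9 of 32623. RNA of rat LSECs had been sequenced in 32 libraries, 22 of a carbon tetrachloride (CCl4) model and 10 of a thioacetamide (TAA) experiment, with totals between 25646531 and 46464289 expected counts.

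In the CCl4 model, male Wistar Han rats inhaled the hepatotoxin for 2 weeks (acute injury, n = 5), 6 weeks (fibrosis, n = 5) or 12 to 14 weeks (cirrhosis with ascites, n = 6), and 6 untreated rats gave the healthy LSECs. Drinking water in this model held phenobarbital, an inducer of drug metabolism that makes the liver more sensitive to CCl4. Whether the untreated rats drank it too was not given in the sources used here, so that its effect and that of CCl4 cannot be told apart. Cells were taken some days after the last toxicant by perfusion, digestion and an iodixanol gradient, which enriches LSECs by density and not by a surface marker. In the TAA experiment, libraries 1 to 5 are labelled control and libraries 10, 12, 13, 14 and 15 are labelled TAA control rat. The study describes rats injected with TAA and rats injected with saline, of the Sprague-Dawley strain, whereas the labels name Wistar Han for all libraries. Which labelled group received TAA was not settled, and the comparison is given as labelled, with no direction for disease. Age was not given in the sources used here.

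As background, phospholipases free arachidonic acid from membranes, and a cyclooxygenase turns it into the unstable intermediate prostaglandin H. Terminal synthases then make the active products: prostacyclin, which relaxes vessels, thromboxane, which constricts them and aggregates platelets, and the prostaglandins E and D. Each product acts near its source on G protein-coupled receptors. In the hepatic microcirculation, thromboxane and prostacyclin are known as an opposed pair that helps to set sinusoidal tone, and thromboxane has been linked to portal hypertension.

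Promoter sequence is shown for the 4 members whose acute and fibrosis libraries did not overlap the healthy ones, Ptgs2 and Ptges, which rose, and Ptgs1 and Tbxa2r, which fell, a choice made after their values were seen. The 250 bases before the annotated start were taken from RefSeq in the build GRCr8, which is not the build of the counts (Rnor_6.0), and 8 of the 9 members were matched by symbol. They read 5′ to 3′ on the strand of the gene, at chr13:64713813-64714062 (plus strand) for Ptgs2, chr3:34586988-34587237 (minus) for Ptges, chr3:39981169-39981418 (plus) for Ptgs1 and chr7:9038906-9039155 (minus) for Tbxa2r. Capitals mark every match, on either strand, to 7 motifs of transcription factors known at such promoters: the E-box CACGTG, the C/EBP motif TTNNGCAA, the AP-1 motif TGANTCA, the cyclic AMP response element TGACGTCA, the GC box GGGCGG, the Krüppel-like factor core CACCC and the CCAAT box.
Ptgs2: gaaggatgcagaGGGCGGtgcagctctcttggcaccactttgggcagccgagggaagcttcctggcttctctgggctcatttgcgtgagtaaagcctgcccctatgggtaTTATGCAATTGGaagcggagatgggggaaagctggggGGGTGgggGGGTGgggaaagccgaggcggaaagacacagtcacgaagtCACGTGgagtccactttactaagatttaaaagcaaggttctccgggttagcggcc
Ptges: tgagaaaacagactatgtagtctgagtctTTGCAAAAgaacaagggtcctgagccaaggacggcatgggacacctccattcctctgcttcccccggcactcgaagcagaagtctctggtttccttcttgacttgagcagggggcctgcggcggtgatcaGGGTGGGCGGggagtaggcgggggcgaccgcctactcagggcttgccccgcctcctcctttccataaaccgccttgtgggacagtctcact
Ptgs1: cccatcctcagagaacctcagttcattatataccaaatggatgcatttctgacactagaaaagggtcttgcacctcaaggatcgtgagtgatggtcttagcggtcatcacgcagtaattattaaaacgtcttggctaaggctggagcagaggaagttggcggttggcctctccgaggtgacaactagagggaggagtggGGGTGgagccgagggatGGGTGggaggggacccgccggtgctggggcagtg
Tbxa2r: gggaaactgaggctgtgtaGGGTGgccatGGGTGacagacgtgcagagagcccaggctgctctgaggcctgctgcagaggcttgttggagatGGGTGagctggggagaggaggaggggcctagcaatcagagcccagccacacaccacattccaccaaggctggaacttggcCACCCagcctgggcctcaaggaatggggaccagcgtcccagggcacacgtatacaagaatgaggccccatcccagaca

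Counted back from the start, the Ptgs2 window held the GC box at bases 238 to 233, the C/EBP motif at 140 to 133 sharing 1 base with a CCAAT box at 133 to 129, the CACCC core at 103 to 99 and 95 to 91, and the E-box at 55 to 50. The Ptges window held a C/EBP motif at 221 to 214 and a CACCC core at 91 to 87 whose last base is shared with a GC box at 87 to 82. The windows of Ptgs1 and Tbxa2r held, of these motifs, the CACCC core alone, at 2 places in Ptgs1 and 4 in Tbxa2r. Of 33469 rat promoters of the same length, 49.2% held CACCC, 34.0% CCAAT, 30.5% the GC box, 9.22% the C/EBP motif, 6.34% the AP-1 motif, 5.59% the E-box and 1.59% the cyclic AMP response element. A match is a description of these letters and shows no binding.

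Levels are given as CPM, counts relative to the library total after TMM scaling, computed separately for the CCl4 libraries and for the TAA experiment, so that values were compared only within each. Differences are log2 fold changes from limma-voom ± standard error (SE), and a gene was called higher or lower at a Benjamini-Hochberg adjusted p under 0.05 over all genes tested together with a fold-change above 1.5. In bulk RNA, fewer cells of a type and less RNA per cell cannot be told apart. The libraries of the 2-week and 6-week rats stood apart in many genes besides the members: the summed level of 8 sinusoidal endothelial markers was 13017 to 25071 CPM in healthy, 3288 to 3961 in acute, 2272 to 3170.3 in fibrosis and 13768.5 to 17776 CPM in cirrhosis, with none of the 8 at 0. Of these 8, 6 were called lower in acute injury and 7 in fibrosis, where 37.9% and 34.9% of all genes were called lower. Cdh5, the junction protein of endothelial cells, was unlike most of the list, at a mean of 1288 CPM in healthy, 1589 in acute, 1020 in fibrosis and 1542 in cirrhosis. Stab2, a scavenger receptor of LSECs, was at 3467, 148, 176 and 3370 CPM in the same order. The 10 immediate-early genes listed, which dissociation of tissue is known to induce, summed to 29934 to 61946 CPM in healthy, 864 to 2706 in acute, 1982 to 2941 in fibrosis and 20489 to 41179.8 CPM in cirrhosis. Macrophage markers (10 genes) summed to 366 to 3908, 82.5 to 241, 35.3 to 224 and 908 to 3359 CPM, and stellate cell markers (9 genes) to 280.0 to 785, 1315 to 2116, 1278 to 1714 and 632 to 2035 CPM, with no gene of these lists at 0. The higher stellate sum in acute injury was carried by Reln (mean 166 CPM in healthy and 1670.2 in acute), the 1 gene of that list called higher, whereas 6 of the 9 were called lower, among them Col3a1 (223 and 5.20 CPM) and Lrat (31.7 and 4.35 CPM). In fibrosis 3 of the 9 were called higher and 3 lower, where 35.3% and 34.9% of all genes were. In cirrhosis 7 of the 9 were called higher and 0 lower, where 27.1% and 24.7% of all genes were. Vascular endothelial markers (Vwf, Cd34, Selp, Emcn and Plvap) summed to 1635 to 5116 CPM in healthy, 57.1 to 83.7 in acute, 83.8 to 252 in fibrosis and 3002 to 5461 CPM in cirrhosis, none at 0, and all 5 were called lower in acute injury and in fibrosis. Hepatocyte markers (8 genes) summed to 1268 to 27859, 143 to 919, 1285 to 5048 and 3007 to 14979.8 CPM. Their part in the results below was not tested, and a preparation batch and the stage cannot be told apart because the labels name none.

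**Figure D1:**
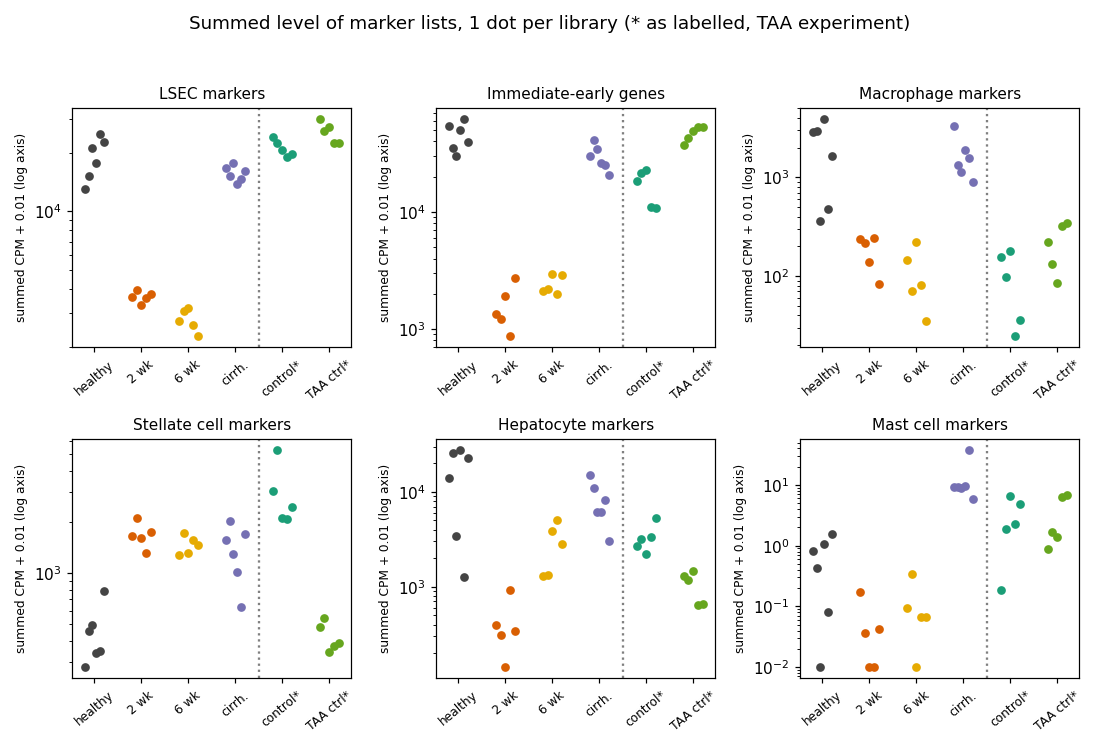
Summed CPM of 6 marker lists on log axes, 1 dot per library, by group, with the groups of the TAA experiment right of the dotted line. LSEC markers and immediate-early genes lie lower in every library after 2 or 6 weeks of CCl4 than in any healthy or cirrhotic library, and macrophage markers spread from 366 to 3908 CPM among the 6 healthy libraries.

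The cyclooxygenases moved in opposite directions. Ptgs1, the constitutive enzyme (COX-1), fell more than 10-fold after 2 and 6 weeks of CCl4, while Ptgs2, the inducible enzyme (COX-2), rose at all 3 stages. In healthy LSECs Ptgs1 ranged from 113 to 231 CPM with a median of 148. It was 14.8, 14.3, 11.3, 18.4 and 10.4 CPM in the 5 acute libraries and 14.1, 9.16, 14.9, 7.94 and 7.05 CPM in the 5 fibrosis libraries. Cirrhotic LSECs ranged from 96.4 to 153 CPM, median 114. The acute and fibrosis libraries lay below all healthy and cirrhotic ones without overlap, and the healthy and cirrhotic ranges overlapped. The log2 fold change against healthy was -3.42 ± 0.22 in acute injury (adjusted p = 5.48e-08), -3.80 ± 0.25 in fibrosis (adjusted p = 9.01e-08) and -0.37 ± 0.19 in cirrhosis (95% interval -0.77 to 0.04, adjusted p = 0.112). The difference in cirrhosis missed the threshold, and weights per library moved it to -0.64 and past it.

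Ptgs2 ranged from 9.16 to 31.5 CPM in healthy LSECs, with a median of 23.2. The acute libraries held 184, 51.1, 212, 107 and 556 CPM and the fibrosis libraries 201, 229, 295, 231 and 230.5 CPM. Cirrhotic LSECs ranged from 68.1 to 159.5 CPM, median 95.1. Every injured library lay above every healthy one, and acute injury was the most variable stage, its highest library holding 10.9 times its lowest. The log2 fold change against healthy was 3.15 ± 0.55 in acute injury (adjusted p = 0.000216), 3.73 ± 0.30 in fibrosis (adjusted p = 4.22e-07) and 2.36 ± 0.31 in cirrhosis (adjusted p = 0.000138). Ptgs2 is itself known as an immediate-early gene. Of the list of immediate-early genes, which does not hold it, all 10 were called lower in acute injury and in fibrosis, and 4 of 10 in cirrhosis. The part of dissociation in the Ptgs2 difference was not tested.

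Among the terminal synthases, the prostacyclin enzyme Ptgis was called lower at all 3 stages. The prostaglandin E enzyme Ptges was called higher, and the prostaglandin D enzyme Ptgds lower, in acute injury and fibrosis. Neither was called in cirrhosis, and low counts limited both, as given below. Ptges encodes the inducible microsomal prostaglandin E synthase, known to be coupled with COX-2. It was near its floor in healthy LSECs, at 0.892, 0.586, 1.10, 0.118, 0.0350 and 0.155 CPM, or 1 to 27 counts a library. It reached 4.79, 2.46, 7.15, 8.29 and 30.4 CPM in the acute libraries and 8.48, 13.9, 14.8, 18.7 and 10.2 CPM in those with fibrosis, and was back between 0.208 and 0.574 CPM in cirrhosis. Acute and fibrosis libraries lay above all others. Library 8 was the highest acute library for Ptges and Ptgs2, and also for Ptgds, Tbxa2r, Ptgir and Ptger4. It was not the highest for Ptgs1, Ptgis or Tbxas1. The log2 fold change against healthy was 4.64 ± 0.90 in acute injury (adjusted p = 0.000463) and 5.51 ± 0.61 in fibrosis (adjusted p = 6.31e-06). In cirrhosis it was 0.21 ± 0.68 (95% interval -1.24 to 1.67), with 3 of 6 healthy and 5 of 6 cirrhotic libraries at 10 counts or more, and its sign depended on the test. Because Ptges passed the filter on low counts largely through the groups in which it is high, its calls were in part fixed by that filter.

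Ptgis encodes prostacyclin synthase, the endothelial enzyme of the vasodilating arm. Its healthy range was 7.08 to 17.3 CPM with a median of 12.7. It was 1.27, 0.460, 1.80, 0.668 and 1.27 CPM in acute injury, 7.92, 4.53, 4.32, 4.25 and 1.72 CPM in fibrosis, and 1.92 to 5.31 CPM (median 4.02) in cirrhosis. Acute and cirrhotic libraries lay below all healthy ones, and 1 fibrosis library, at 7.92 CPM, reached into the healthy range. The gene was called lower at all 3 stages, with a log2 fold change of -3.54 ± 0.42 in acute injury (adjusted p = 8.52e-06), -1.42 ± 0.37 in fibrosis (adjusted p = 0.00430) and -1.74 ± 0.32 in cirrhosis (adjusted p = 0.000765).

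Tbxas1, which encodes thromboxane synthase, an enzyme abundant in platelets and macrophages, was the only member called at no stage. Healthy libraries held 201, 134, 21.2, 31.9, 20.8 and 67.7 CPM, and libraries 1 and 2 stood above the rest. The acute libraries lay between 30.2 and 49.5 CPM, those with fibrosis between 34.8 and 44.8, and the cirrhotic ones between 18.5 and 114 CPM, so that all groups overlapped. The log2 fold change against healthy was -0.32 ± 0.57 in acute injury (95% interval -1.55 to 0.91), -0.38 ± 0.57 in fibrosis (-1.61 to 0.85) and -0.44 ± 0.64 in cirrhosis (-1.82 to 0.95), intervals that do not show an unchanged level. Without healthy libraries 1 and 2 the values became 0.55, 0.41 and 0.36. With healthy libraries 3 and 5 only, a subset set after the data were seen, Tbxas1 was called higher in acute injury (1.18, adjusted p = 0.00244) and in fibrosis (0.99, adjusted p = 0.000338), and these libraries also hold the lowest healthy Tbxas1. Leaving out healthy library 1 alone gave 0.13 in acute injury. Platelet markers (6 genes) summed to 12.3 to 51.4 CPM in healthy, 4.84 to 9.90 in acute, 6.22 to 12.1 in fibrosis and 11.1 to 37.6 CPM in cirrhosis, with an entry of Gp1bb at 0 in acute injury and fibrosis and Gp6 at 0 in fibrosis. The macrophage sum was 2921 and 2985 CPM in healthy libraries 1 and 2, 366 and 475 CPM in libraries 3 and 5 with the lowest Tbxas1, and 3908 CPM in library 4, where Tbxas1 was 31.9 CPM. Lymphocyte markers (7 genes) were highest in healthy libraries 1 and 2, at 187 and 123 CPM, and 53.5 CPM in library 4. The sinusoidal endothelial sum was lowest in libraries 1 and 2, at 13017 and 15226 CPM. Hepatocyte markers were highest in library 4, at 27859 CPM. The part of these cell types was not tested.

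Ptgds, the lipocalin-type prostaglandin D synthase, was scarce throughout. Healthy LSECs held 4.82, 1.79, 0.854, 0.590, 0.105 and 0.750 CPM, a spread of 3 to 146 counts, and library 1 was highest. The acute libraries held 1 to 4 counts each (0.0270 to 0.127 CPM), those with fibrosis 2 to 12 counts (0.0573 to 0.368 CPM), and the cirrhotic ones 0.482 to 0.845 CPM. Ptgds was called lower in acute injury (-3.54 ± 0.95, adjusted p = 0.00450) and in fibrosis (-2.17 ± 0.90, adjusted p = 0.0445), while cirrhosis gave -0.36 ± 0.66. The call in fibrosis rested on all libraries together: it was lost in 10 of the 11 fits that left out 1 library, with values between -2.42 and -1.67. Without healthy library 1 the cirrhosis value was 0.14. The gene passed the filter on low counts through the healthy and cirrhotic groups, since no acute library and 1 fibrosis library reached 10 counts, so that its direction there was in part fixed by the filter. In acute injury it was tested in 6 of the 11 fits that left out 1 library (-4.11 to -3.32, called in each), and it was also called with no filter.

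**Figure D2:**
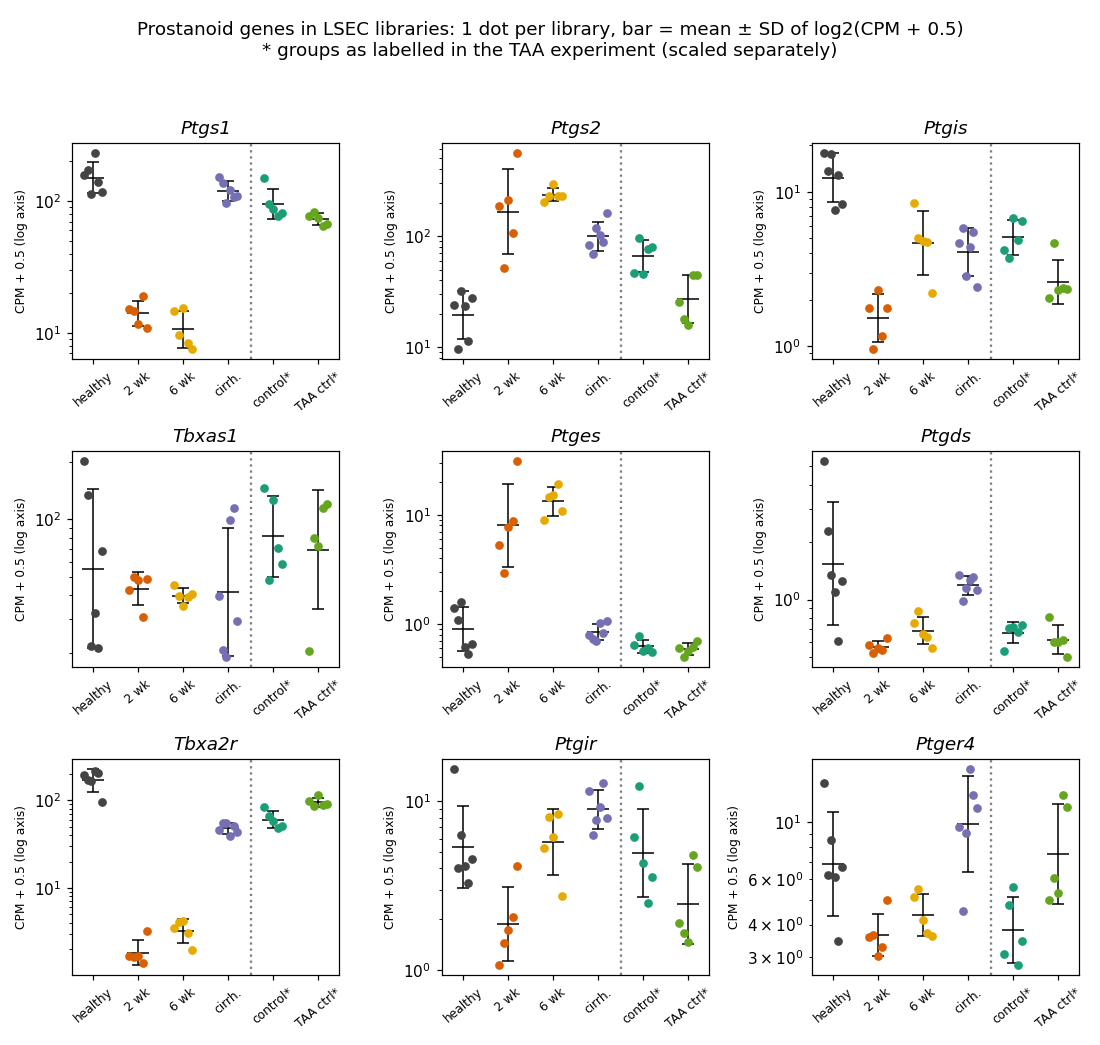
Level of the 9 members as CPM + 0.5 on log axes, 1 dot per library, with the mean ± SD of log2(CPM + 0.5) per group as bars. Tbxa2r and Ptgs1 drop after 2 and 6 weeks of CCl4 and lie higher again in cirrhosis, while Ptgs2 and Ptges rise after 2 and 6 weeks. In cirrhosis Ptges overlaps the healthy libraries, whereas Ptgs2 lies above all of them and overlaps the acute ones. Tbxas1 spreads widely among the 6 healthy libraries.

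The largest fold change of any member was that of a receptor. Tbxa2r encodes the thromboxane receptor, through which thromboxane constricts vessels and acts on endothelium. It was abundant in healthy LSECs, at 96.4 to 219 CPM (median 182). After 2 weeks of CCl4 the libraries held 1.16, 1.14, 1.15, 0.875 and 2.71 CPM, after 6 weeks 2.96, 3.61, 3.64, 2.53 and 1.46 CPM, and in cirrhosis 39.0 to 54.9 CPM (median 48.0). No injured library overlapped the healthy range, and the cirrhotic libraries lay between the healthy and the earlier ones. Tbxa2r was called lower at all stages, 129-fold in acute injury (log2 -7.01 ± 0.35, adjusted p = 7.14e-09), 58.9-fold in fibrosis (log2 -5.88 ± 0.30, adjusted p = 1.33e-08) and 3.64-fold in cirrhosis (log2 -1.86 ± 0.20, adjusted p = 6.77e-05). Its log2 CPM followed the summed immediate-early genes over the 22 CCl4 libraries (Pearson r = 0.98, Spearman rho = 0.96), a description over libraries that fall into the same groups.

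Ptgir encodes the prostacyclin receptor, which raises cyclic AMP and opposes the thromboxane receptor. Healthy LSECs held 15.03, 3.51, 5.78, 3.62, 2.76 and 4.03 CPM, with library 1 far above the others. The acute libraries held 0.568, 0.946, 1.23, 1.57 and 3.63 CPM and those with fibrosis 4.79, 7.63, 5.66, 7.91 and 2.26 CPM, while cirrhotic LSECs ranged from 5.79 to 12.3 CPM (median 8.13). Groups overlapped at each stage. Ptgir was called lower in acute injury (-1.85 ± 0.53, adjusted p = 0.00684), and the value was 0.19 ± 0.45 in fibrosis (95% interval -0.79 to 1.18). In cirrhosis it was 0.79 ± 0.35 with an adjusted p of 0.0707, and it passed the threshold without healthy library 1 (1.12), with library size in place of TMM scaling (1.12), with upper-quartile factors (0.93) and with the filter at 1 CPM (0.89).

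Ptger4 encodes the EP4 receptor of prostaglandin E, which like the prostacyclin receptor raises cyclic AMP. It ranged from 2.94 to 13.7 CPM in healthy LSECs (median 5.96) and from 4.03 to 15.6 CPM in cirrhosis (median 9.97). The acute libraries held 3.09, 3.14, 2.51, 2.76 and 4.49 CPM and those with fibrosis 4.62, 5.02, 3.67, 3.21 and 3.12 CPM, all within or just below the healthy range. It was called lower in acute injury (-0.99 ± 0.36, adjusted p = 0.0237), a call lost with library size in place of TMM scaling (-0.58, adjusted p = 0.139), without healthy libraries 1 and 2 (-0.67), with healthy libraries 3 and 5 only (-0.47), and without acute library 3 (-0.90) or library 4 (-0.92). The value was -0.62 ± 0.35 in fibrosis (adjusted p = 0.124), which passed without healthy library 5 (-0.85), and 0.53 ± 0.38 in cirrhosis (adjusted p = 0.249).

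**Figure D3:**
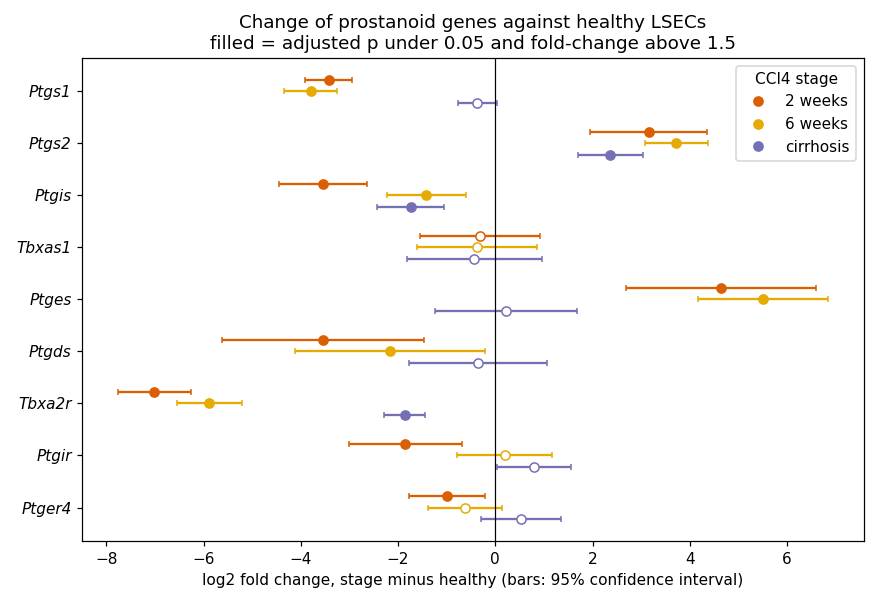
Log2 fold change of each member against healthy LSECs at the 3 CCl4 stages from limma-voom, with 95% confidence intervals and filled dots for called genes. Ptgs2, Ptgis and Tbxa2r are filled at all 3 stages, and Tbxas1 at none.

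Against healthy LSECs, 8 of the 9 members were called in acute injury (2 higher, 6 lower), where 73.4% of all genes tested were called. In fibrosis 6 were called (2 higher, 4 lower) against 70.2% of all genes, and in cirrhosis 3 (1 higher, 2 lower) against 51.8%. By direction, 35.5% of all genes were called higher and 37.9% lower in acute injury, 35.3% and 34.9% in fibrosis, and 27.1% and 24.7% in cirrhosis. With so many genes called, the members' counts lie near that background, and they include Ptges and Ptgds, which entered the test largely through the groups in which they are high. The median log2 fold change of the 9 members was -1.85 in acute injury, -0.62 in fibrosis and -0.36 in cirrhosis, beside -0.09, -0.03 and 0.07 over all genes tested. Groups did not overlap for 5, 4 and 3 members, where 60.1%, 58.7% and 27.3% of all genes did not overlap. The 3 members called at every stage were Ptgs2, Ptgis and Tbxa2r.

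From acute injury to fibrosis 3 of the 8 tested members were called, all higher, where 11.0% of all genes were called and 10.2% were called higher and 0.732% lower: Ptgis by a log2 fold change of 2.16 ± 0.49 (adjusted p = 0.0143), Ptgir by 2.09 ± 0.49 (adjusted p = 0.0165) and Tbxa2r by 1.18 ± 0.34 (adjusted p = 0.0342). The prostacyclin enzyme and its receptor were both higher, each with 1 fibrosis library, number 17, inside the acute range. Between these stages 6 of 9 stellate cell markers and 8 of 8 hepatocyte markers were also called higher, and 0 of 8 sinusoidal endothelial markers were. Their part in the members' differences was not tested. The Tbxa2r call was lost in 8 of the 10 fits that left out 1 library, with values from 1.03 to 1.20 in those fits. Ptgs2 (0.62 ± 0.50) and Ptges (0.93 ± 0.50) were not called, but without acute library 8, their highest, they were, at 1.06 and 1.37, which made 5 members.

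From fibrosis to cirrhosis 6 of 9 members were called, where 63.8% of all genes were: 4 higher (34.3% of all genes) and 2 lower (29.5%). Tbxa2r was 4.08 ± 0.22 higher on the log2 scale (adjusted p = 7.95e-09), Ptgs1 3.49 ± 0.20 (adjusted p = 1.29e-08), Ptgds 1.86 ± 0.38 (adjusted p = 0.000700) and Ptger4 1.19 ± 0.39 (adjusted p = 0.0132). Ptges was lower by -5.25 ± 0.41 (adjusted p = 2.14e-07) and Ptgs2 by -1.31 ± 0.20 (adjusted p = 7.14e-05). Of these, Ptgs1, Ptgs2, Ptges, Ptgds and Tbxa2r had no overlap between the groups, where 62.9% of all genes had none. Ptgds passed the filter on low counts here through the cirrhotic group, with 6 of 6 libraries at 10 counts or more. Of the 5 fibrosis libraries 1 reached 10 counts, so that the direction of Ptgds was in part fixed by the filter. Ptgis (-0.25 ± 0.37) and Ptgir (0.65 ± 0.32) were not called, although Ptgir was without cirrhotic library 2 (0.79) or fibrosis library 16 (0.80).

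Against acute injury, cirrhosis differed in 7 of 9 members, where 69.3% of all genes were called, 37.5% higher and 31.8% lower. The 6 higher members were Ptgs1 (3.08 ± 0.16), Ptgis (1.84 ± 0.41), Ptgds (3.21 ± 0.36), Tbxa2r (5.18 ± 0.26), Ptgir (2.67 ± 0.39) and Ptger4 (1.54 ± 0.37), and Ptges was lower (-4.40 ± 0.79), with adjusted p-values between 2.71e-09 and 0.00196. Groups did not overlap for 6 members, Ptgds among them, where 65.5% of all genes did not overlap. Here too Ptgds passed the filter on low counts through the cirrhotic group, since no acute library reached 10 counts. Its direction was thus in part fixed by the filter. Ptgs2 gave -0.77 ± 0.47 and was not called. It was called without acute library 2, its lowest acute library, at -1.20, and by edgeR and DESeq2 on all libraries at -1.14 and -1.10.

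Ordered by mean CPM, the course differed between members. For Ptgs1 the order rose from fibrosis over acute injury and cirrhosis to healthy, and only the step from acute injury to cirrhosis was free of overlap. For Tbxa2r it rose from acute injury over fibrosis to cirrhosis and healthy, and both upper steps were free of overlap. Ptgs2 rose from healthy over cirrhosis and acute injury to fibrosis, with no overlap at its lowest step. For Tbxas1, Ptgir and Ptger4 all neighboring groups in the order overlapped.

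Paired genes were followed within each library as the difference of their log2(CPM + 0.5). Transcript length cancels in the shift between groups but not in the difference itself, and the added 0.5 CPM makes a shift smaller where a gene is near that level, as Ptgis and Tbxa2r were in acute injury. Ptgs2 minus Ptgs1 shifted from healthy by 6.50 in acute injury, 7.42 in fibrosis and 2.69 in cirrhosis, and the healthy libraries (-4.16 to -1.83) did not reach the acute (1.81 to 5.67), fibrosis (3.78 to 4.94) or cirrhotic ones (-0.996 to 0.55). Ptgir minus Tbxa2r, the prostacyclin against the thromboxane receptor, shifted by 5.03, 5.81 and 2.57, from a healthy range of -5.97 to -3.65 to ranges of -0.64 to 0.59, 0.49 to 1.47 and -3.14 to -1.97. For the synthases of the same pair, Ptgis minus Tbxas1, the shifts were -2.67, -0.94 and -1.20. Here the acute libraries (-5.70 to -4.38) lay below all healthy ones (-3.50 to -0.31), and fibrosis (-4.20 to -2.43) and cirrhosis (-4.50 to -1.84) overlapped them. In acute injury, where both pairs left the healthy range, they shifted in opposite directions: Tbxa2r fell further than Ptgir, while Ptgis fell beside a Tbxas1 that was not called.

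**Figure D4:**
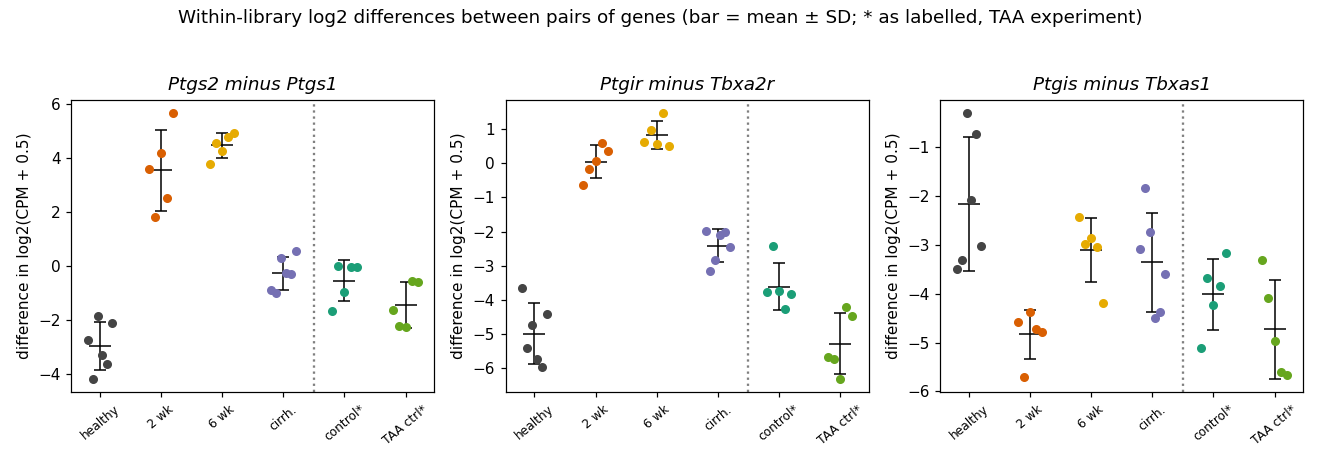
Difference in log2(CPM + 0.5) between 2 genes of the same library, 1 dot per library, with the mean ± SD per group. Ptgs2 minus Ptgs1 and Ptgir minus Tbxa2r lie above the healthy range in all injured CCl4 libraries, and Ptgis minus Tbxas1 lies below it in the 5 acute libraries.

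In the TAA experiment, 7 of the 9 members were tested and 4 were called between the labelled groups, where 27.6% of all genes were called, 12.7% higher and 14.9% lower in the group labelled TAA control. Ptges (0 to 8 counts a library) and Ptgds (0 to 9 counts) did not pass the filter. Ptgs2 was 46.4, 94.9, 44.8, 75.9 and 79.2 CPM in the libraries labelled control and 25.0, 17.5, 15.4, 43.9 and 44.6 CPM in those labelled TAA control, with no overlap. Its log2 fold change, labelled TAA control minus labelled control, was -1.32 ± 0.34 (adjusted p = 0.00754). Ptgis was 3.69, 3.24, 6.24, 4.39 and 5.97 CPM against 1.54, 4.15, 1.82, 1.87 and 1.86 CPM, lower by the same comparison (-1.12 ± 0.29, adjusted p = 0.00892), with library 12 inside the range of the other group.

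Tbxa2r was 83.8, 65.9, 57.3, 47.3 and 50.02 CPM in the libraries labelled control and 96.9, 86.2, 115, 87.8 and 89.5 CPM in those labelled TAA control. The groups did not overlap, as for Ptgs2 but no other tested member, where 35.1% of all genes tested did not overlap. The log2 fold change was 0.66 ± 0.14 (adjusted p = 0.00290), which fell under the fold threshold without the labelled control library 4 (0.58). Ptger4 was 2.58, 4.27, 5.08, 2.28 and 2.95 CPM against 4.48, 5.60, 4.83, 12.3 and 11.0 CPM, higher by 1.05 ± 0.36 (adjusted p = 0.0317). Libraries 14 and 15 carry much of that difference. They also were more alike than any other pair of libraries of a group, with a chi-square per degree of freedom of 2.96 against at least 23.6, and Ptger4 was no longer called with their mean as 1 library (0.87). It was lost as well without labelled control library 1 (0.96), 4 (0.93) or 5 (1.01) or without library 15 (0.89).

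Ptgs1 gave -0.39 ± 0.15 (adjusted p = 0.0554), Tbxas1 -0.24 ± 0.49 (95% interval -1.31 to 0.83) and Ptgir -1.25 ± 0.55 (adjusted p = 0.0826) in the TAA experiment, and none was called. Ptgir was called without labelled control library 4 (-1.51), and Tbxas1 was 0.22 without library 10. Of the other lists, immediate-early genes summed to 10776 to 22554 CPM in the group labelled control and 37164 to 53476 in the group labelled TAA control, and all 10 were called higher in the latter. Stellate cell markers summed to 2070 to 5319 CPM and 346 to 543 CPM in the same order, with 8 of 9 called lower in the group labelled TAA control. Macrophage markers summed to 24.5 to 178 and 85.1 to 346 CPM, with 1 of 10 called higher. Vascular endothelial markers summed to 1975 to 3243 and 863 to 947 CPM, with 3 of 5 called lower in the group labelled TAA control. Of all genes, 12.7% were called higher and 14.9% lower. Thus Ptgs2 was lower in the group in which immediate-early genes were higher, as in the comparison of healthy with 2-week and 6-week CCl4 libraries, and Tbxa2r was higher in it. The part of these lists in the members' differences was not tested.

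The remaining genes of the pathway were taken from 5 lists, in which 38 symbols were found as 39 entries. Against healthy LSECs, 22 of 30 tested were called in acute injury (6 higher, 16 lower), 19 of 31 in fibrosis (5 higher, 14 lower) and 16 of 33 in cirrhosis (7 higher, 9 lower), where 73.4%, 70.2% and 51.8% of all genes were called, so that the lists as a whole stood near or below the background. Their median log2 fold changes were -0.85, -0.79 and 0.05, beside -0.09, -0.03 and 0.07 over all genes. Genes near the floor in acute injury or fibrosis entered largely through the healthy group. Their direction there was thus in part fixed by the filter on low counts. Between stages, 5 of 26 were called from acute injury to fibrosis (11.0% of all genes), 22 of 33 from fibrosis to cirrhosis (63.8%) and 26 of 33 between acute injury and cirrhosis (69.3%), and 13 of 29 in the TAA experiment (27.6%).

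For the release of arachidonic acid, 8 of 8 tested genes were called in acute injury (3 higher, 5 lower), 5 of 8 in fibrosis (2 higher, 3 lower) and 3 of 8 in cirrhosis (2 higher, 1 lower), beside 73.4%, 70.2% and 51.8% of all genes, which the last 2 counts did not reach. Pla2g4a, the cytosolic phospholipase that feeds the cyclooxygenases, rose at all stages, from a healthy mean of 5.34 CPM to 12.4, 14.4 and 16.1 CPM (log2 1.33 ± 0.36, 1.63 ± 0.33 and 1.68 ± 0.29). Acsl4, which loads arachidonic acid onto coenzyme A, rose too (2.06, 2.09 and 0.79), whereas the calcium-independent phospholipase Pla2g6 fell (-1.94, -1.96 and -1.38). Mgll, the lipase that frees arachidonic acid from an endocannabinoid, was at 20.6 to 40.2 CPM in healthy LSECs, 0.576 to 1.24 CPM in acute injury and 0.430 to 1.35 CPM in fibrosis (-5.02 ± 0.30 and -4.99 ± 0.32). In cirrhosis it was 24.1 to 54.2 CPM, with a log2 fold change of 0.05 ± 0.24 that was not called.

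Among the other synthases, 4, 4 and 6 of 7 tested were called in acute injury, fibrosis and cirrhosis, the first 2 counts below the 73.4% and 70.2% of all genes and the last above the 51.8%. Ptges3, a cochaperone that also has prostaglandin E synthase activity, rose at all stages (2.12, 2.05 and 0.61). Akr1b1, an aldose reductase that can make prostaglandin F, was higher in acute injury and fibrosis (2.23 and 2.45) and lower in cirrhosis (-0.91), and Fam213b, another prostaglandin F synthase, was lower throughout (-2.69, -2.67 and -1.86). Hpgds, the hematopoietic prostaglandin D synthase known from mast cells and macrophages, was lower in acute injury and fibrosis (-2.47 and -3.34) and higher in cirrhosis (1.499 ± 0.49, adjusted p = 0.0195), where it reached 4.82 to 12.5 CPM against 0.488 to 5.84 in healthy LSECs. Mast cell markers (4 genes) summed to 0 to 1.55 CPM in healthy and 5.97 to 38.3 CPM in cirrhosis, and macrophage markers to 366 to 3908 and 908 to 3359 CPM. Their part in the Hpgds difference was not tested. Cbr1 is listed under 2 identifiers and its copies are uncertain.

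Of the genes for transport and breakdown, 3 of 5, 3 of 5 and 3 of 6 tested were called, each below the 73.4%, 70.2% and 51.8% of all genes. Slco2a1, the prostaglandin uptake transporter, was at 2.06 to 71.6 CPM in healthy LSECs and at 0.246 to 0.668 CPM in acute injury (-5.86 ± 1.43, adjusted p = 0.00238). It was -2.71 ± 1.05 in fibrosis and -0.91 ± 0.76 in cirrhosis, where it was not called. Zadh2, a prostaglandin reductase, was lower at all stages (-0.64, -0.79 and -1.10). Of the other receptors, 3 of 4, 2 of 5 and 1 of 5 tested were called, all lower, where 37.9%, 34.9% and 24.7% of all genes were called lower. Some of these receptors were near the floor in acute injury, and the limit set by the filter holds for them. Ptger1, the EP1 receptor of prostaglandin E, was lower throughout, at a mean of 52.0 CPM in healthy LSECs and 5.64, 5.60 and 27.5 CPM at the 3 stages (-3.15, -3.07 and -0.87).

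In the leukotriene and lipoxygenase arm, which draws on the same arachidonic acid, 4 of 6 tested genes were called in acute injury and 5 of 6 in fibrosis, all lower, and 3 of 7 in cirrhosis (2 higher, 1 lower). Over all genes 73.4%, 70.2% and 51.8% were called, and 37.9% and 34.9% were called lower in acute injury and fibrosis. Ltc4s, the leukotriene C synthase, had 27 to 83 counts in each healthy library and 1 count in the 5 acute libraries together. The ratio was 323, with an exact 95% counting interval of 57.6 to 12817. This interval pools the libraries and leaves out the spread between rats. From limma-voom the log2 fold change was -6.57 (adjusted p = 1.47e-07). Ltc4s was back at 1.06 to 2.60 CPM in cirrhosis, beside 0.945 to 2.86 in healthy LSECs. Alox15, a lipoxygenase of macrophages and eosinophils, was called lower at all stages (-4.78, -3.81 and -1.71). Its mean was near the floor, at 1.77 CPM in healthy LSECs and 0.0445, 0.0886 and 0.415 CPM at the 3 stages. Ltc4s and Alox15 entered the tests of acute injury and fibrosis through the healthy group. Their direction there was thus in part fixed by the filter on low counts.

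**Figure D5:**
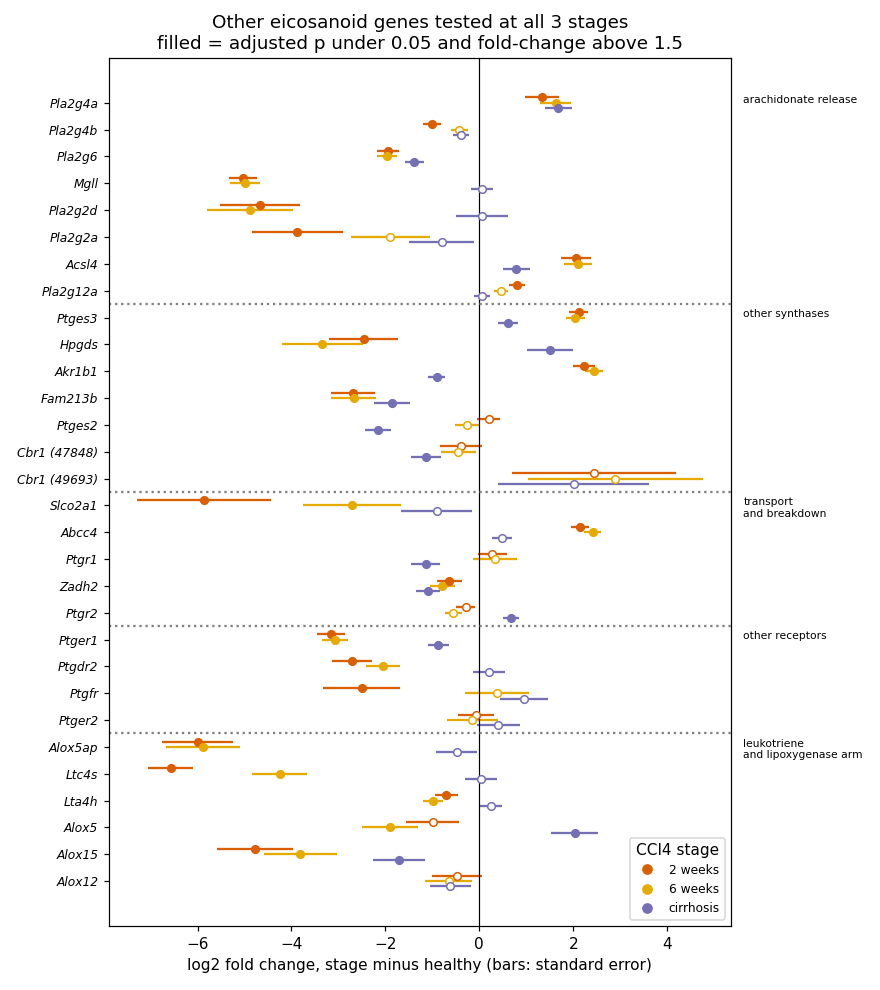
Log2 fold change against healthy LSECs ± SE at the 3 CCl4 stages for the 30 other eicosanoid genes tested at every stage, grouped by list, with filled dots for called genes. Pla2g4a, Acsl4 and Ptges3 lie to the right of 0 at all stages and Pla2g6, Fam213b, Zadh2, Ptger1 and Alox15 to the left, all filled.

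Genes whose log2 CPM ran most alike with a member over the 22 CCl4 libraries were listed for each, among 8540 or 8541 other genes with a mean log2 CPM of at least 3. Tbxa2r ran closest with Ushbp1 (Pearson r = 0.997), Islr and Gstt1 (0.99 each), and Ptgs1 with Adgre5, Ppt1 and Txnip (0.99 each). Ptges ran with Pgf, which encodes placental growth factor (0.97), Dgkd and Nploc4 (0.96 each), and Ptgs2 with the stress gene Gadd45a, Arid5b (0.94 each) and Twsg1 (0.93). The likeness of Tbxas1 was weaker, with Stk24 at 0.76, Prkcd at 0.72 and Irf5 at 0.66. For the others the closest were Pik3cd for Ptgds (0.92), Rab11fip1 for Ptger4 (0.91), Sh3bp2 for Ptgis (0.88) and Tgfb3 for Ptgir (0.85). Since these libraries fall into 4 groups that differ in most genes, 902 genes had an r above 0.9 with Ptgs1, and the values describe shared group levels.

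Between members, Ptgs1 and Tbxa2r ran together (r = 0.95), Ptgs1 and Ptges ran against each other (r = -0.94), and Ptgir ran with Ptger4 (r = 0.77). Tbxas1 had its highest r with Ptgds (0.58), whose highest library was also healthy library 1. The macrophage marker sum had an r of 0.93 with Ptgs1 and 0.82 with Tbxa2r over the same libraries, and of 0.31 with Tbxas1. For Ptgs1 and Tbxa2r the sinusoidal endothelial sum gave higher Pearson r values, 0.97 and 0.94, as did the immediate-early sum, 0.95 and 0.98. By Spearman rho the order for Ptgs1 differed. It was 0.95 with the macrophage sum, 0.78 with the sinusoidal endothelial sum and 0.81 with the immediate-early sum. For Tbxa2r, rho was 0.73, 0.76 and 0.96 in the same order. These values too describe shared group levels.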

How the data were processed

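LSEC RNA was sequenced by the authors from poly(A) stranded libraries. STAR aligned the reads to Rnor_6.0 and RSEM estimated gene counts, per the study's methods, and the deposited values are RSEM expected counts (estimated counts, not normalized, 1 file per library, replicates not pooled). RSEM divides reads shared by near-identical genes by estimate. Of 288 member values 3 were not whole. Counts were rounded. Totals ranged from 25646531 to 46464289, and a low count such as that of Ptgds limits precision.

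Each comparison held its 2 groups only and was fitted with limma-voom after TMM scaling and filterByExpr, using limma 3.58.1 under R 4.3.3. Alternatives used DESeq2 1.42.0 and edgeR 4.0.16. Adjusted p-values are Benjamini-Hochberg values over all genes tested, with a fold-change threshold of 1.5. The study names the same tools and fold but an unadjusted p-value. CPM used TMM factors over 22 CCl4 libraries or 10 TAA libraries, and log2 CPM a pseudocount of 0.5. Replicates are separate isolations per the study. Libraries 14 and 15 labelled TAA control, the most alike pair, were counted as separate libraries in the reported tests. With these averaged, Ptgs2, Ptgis and Tbxa2r were still called. Healthy, acute and cirrhotic libraries share replicate numbers but come from different rats, and numbers did not pair them. Durations of 12 to 14 weeks for cirrhosis come from the study's description. In the TAA experiment titles, not descriptions, gave the replicate numbers.

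The members and lists were chosen with earlier results of these data known. Named genes are the 9 members, listed pathway genes called at all 3 stages or with the largest log2 fold change of their list, and the 3 genes most alike with each member. Alternatives were edgeR's quasi-likelihood test, DESeq2, other scaling factors or none, other low-count filters, library quality weights, a joint fit of the 4 CCl4 groups, an unadjusted p-value, the replicate block and each library left out. Leaving out healthy libraries 1 and 2, keeping healthy libraries 3 and 5 only, and averaging libraries 14 and 15 were chosen after seeing the data. The tests were also run on simulated data in which 200 genes changed by a log2 fold change of 2, of 13826 for acute injury against healthy. That setting cannot show how they behave where most genes differ, as in acute injury, where 73.4% were called.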

Additional observations from a re-analysis of the deposited data

Results flagged for a closer look

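A library was marked where its gap to the nearest library of its group passed Dixon's 95% limit, in groups of 5 or 6. This held in 5 of 54 groups of libraries, where chance gives about 1 in 20. Tbxa2r was 2.71 CPM in acute library 8, above the 0.875 to 1.16 CPM of the other acute libraries. Tbxa2r was 96.4 CPM in healthy library 6, below the 165 to 219 CPM of the other healthy libraries. Ptgis was 4.15 CPM in library 12 labelled TAA control, above 1.54 to 1.87 CPM in the rest of that group. Tbxas1 was 19.9 CPM in library 10 labelled TAA control, below 71.9 to 119 CPM in the others. Ptgds was 0.0358 CPM in library 1 labelled control, which is 1 count, below 0.173 to 0.234 CPM in the others.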

How the results depend on the processing

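Members called stayed within 1.5 times the reported count in every comparison and alternative except from acute injury to fibrosis, where leaving out 1 library gave 2 to 5 and 5 was reached without acute library 8. For the pathway lists in that comparison, 2 genes were called with a filter at 1 CPM and 2 with a single fit over the CCl4 groups, against 5. Scaling to library size alone raised the median log2 fold change of all genes against healthy by 0.41 in acute injury, 0.40 in fibrosis and 0.35 in cirrhosis. Directions turned for members that the reported tests did not call. Tbxas1 in acute injury became 0.0921 with library size, 0.55 without healthy libraries 1 and 2 and 1.18 with healthy libraries 3 and 5 only, and in fibrosis 0.0165, 0.41 and 0.99, and with libraries 3 and 5 only it was called higher at both stages (adjusted p = 0.00244 and 0.000338). Ptger4 in acute injury was no longer called with library size (-0.58) or these subsets (-0.67 and -0.47), nor Ptgds in fibrosis (-1.78, -1.29 and -0.75). In cirrhosis Tbxas1 was 0.36 and 0.93 with these subsets, and Ptgds was 0.53 and 1.11. Ptges in cirrhosis was -0.45 with edgeR, -0.44 with DESeq2 and -0.11 with the replicate block. Tbxas1 from acute injury to fibrosis was 0.0207 with upper-quartile factors and 0.0175 with the filter at 1 CPM. From fibrosis to cirrhosis it was 0.38 with edgeR, 0.40 with DESeq2, 0.0262 with DESeq2's size factors, 0.0906 with upper-quartile factors, 0.0242 without a filter, 0.0197 with the filter at 1 CPM and 0.41 with weights. Between acute injury and cirrhosis it was 0.26, 0.31, 0.10 and 0.28 with edgeR, DESeq2, upper-quartile factors and weights.

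With 1 library left out, Tbxas1 ranged from -0.61 to 0.13 (acute injury against healthy), -0.14 to 0.0439 (fibrosis against acute), -0.29 to 0.23 (cirrhosis against fibrosis), -0.37 to 0.16 (cirrhosis against acute) and -0.44 to 0.22 (TAA experiment). In cirrhosis against healthy Ptges ranged from -0.29 to 0.56 and Ptgds from -0.93 to 0.14. The cause was not tested.

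Correlations of deviations between same-numbered libraries were -0.22 to 0.25 for cirrhosis and healthy, 0.04 to 0.17 for acute and healthy and -0.08 to 0.07 for cirrhosis and acute, so the numbers were not taken as pairs. With the replicate block 8, 3 and 7 members and 22, 16 and 27 pathway genes were called in acute against healthy, cirrhosis against healthy and cirrhosis against acute. The acute fits with the block used the shared numbers 1 to 4. Depth limited Ptges and Ptgds, which were not tested in the TAA experiment, and Ptgds from acute injury to fibrosis.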
